A study of Mus musculus with 12 samples.

Results

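Type I interferon-stimulated genes were followed in subcutaneous MC38 tumors given vehicle, PB-020, an anti-PD-1 antibody or both. The list held 40 gene symbols, chosen by name as genes that type I interferon is known to induce, and 37 of them had a row among the 18211 genes measured. All 37 passed the filter on low counts that left 13563 genes for testing, and Mx1, Mx2 and Oas1b were not analysed here. MC38 is a mouse colorectal adenocarcinoma line, here grown under the skin of female C57BL/6 mice aged 5 weeks, so transcripts of tumor and host cells were read together. All groups carried the same tumor line. The CK group was given vehicle alone, the PB-020 group took this inhibitor of the insulin-like growth factor receptor IGF-1R by gavage at 50 mg/kg per day from day 7 after tumor injection, the anti-PD-1 group was injected with 200 μg of the antibody RMP1-14 on days 9, 12, 15 and 18, and the PB-020+anti-PD-1 group, called the combination, had both. Each group held 3 tumors, numbered in the labels. The labels do not say that each tumor came from its own mouse, so p values measure only the spread between these tumors.

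Type I interferons are secreted when a cell detects foreign or misplaced nucleic acid, and they act through the receptor IFNAR1/IFNAR2 and the kinases JAK1 and TYK2. The complex ISGF3, which holds STAT2 and IRF9, then binds the interferon-stimulated response element (ISRE) in the promoters of its targets. Interferon gamma, the type II interferon made by T cells and natural killer cells, acts through its own receptor and the gamma-activated site (GAS), and many genes answer to both interferons. In tumors, type I interferon is known for helping dendritic cells to prime T cells, and a long-lasting response to it is also known to accompany resistance to PD-1 blockade.

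The promoters of the members were read for the ISRE and GAS. The members were chosen as genes known to be induced by type I interferon, so the shares describe the list and not these tumors. RefSeq windows of GRCm38.p6, from 250 bases before the transcription start to 50 after it, matched 28 of the 37 members. The ISRE core GAAANNGAAA, searched on both strands and with overlapping matches counted, lay in the windows of 13 members (46.4% of 28), and in 3.99% of the 27025 genes with a window and 3.44% of the 32851 windows. These 13 were Bst2, Ddx58, Eif2ak2, Ifih1, Ifit1, Ifit3, Ifit3b, Isg15, Oas1a, Oas3, Rsad2, Stat2 and Trim30a, and 16 of their 21 matches lay within 200 bases upstream of a start. The palindromic GAS TTCNNNGAA lay in the windows of 6 members (21.4%), Bst2, Eif2ak2, Ifi35, Ifit2, Isg20 and Oas1a, and in 9.55% of all genes and 8.30% of windows. In 1 window, that of Bst2, the motifs overlapped. Shown here, to let the arrangement of these cores be seen, are the 200 bases before the start of the 6 members with 2 or more ISRE matches in 1 window, with the ISRE cores in capitals. They show 3 overlapping cores in Isg15, 2 overlapping cores in Oas1a and Bst2, and 2 separate cores on the opposite strand in Ifit1, Ifit3 and Ifit3b.
Isg15 (chr4:156200819-156201018, minus strand): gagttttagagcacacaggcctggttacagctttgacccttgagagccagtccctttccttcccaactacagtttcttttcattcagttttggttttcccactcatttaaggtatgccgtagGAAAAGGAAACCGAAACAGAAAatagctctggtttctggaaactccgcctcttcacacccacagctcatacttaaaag
Ifit1 (chr19:34640689-34640888, plus strand): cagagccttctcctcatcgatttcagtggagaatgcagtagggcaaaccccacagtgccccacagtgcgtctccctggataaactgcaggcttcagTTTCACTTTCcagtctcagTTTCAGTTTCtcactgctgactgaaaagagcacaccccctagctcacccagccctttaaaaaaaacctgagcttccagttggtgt
Ifit3 (chr19:34583329-34583528, plus strand): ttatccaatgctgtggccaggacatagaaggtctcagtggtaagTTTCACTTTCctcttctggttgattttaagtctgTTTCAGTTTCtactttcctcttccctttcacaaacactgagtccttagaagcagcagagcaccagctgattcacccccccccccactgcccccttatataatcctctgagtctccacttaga
Ifit3b (chr19:34607757-34607956, plus strand): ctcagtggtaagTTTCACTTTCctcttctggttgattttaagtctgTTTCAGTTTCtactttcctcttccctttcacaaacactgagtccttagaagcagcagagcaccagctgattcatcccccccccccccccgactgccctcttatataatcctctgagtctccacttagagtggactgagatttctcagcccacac
Oas1a (chr5:120907526-120907725, minus strand): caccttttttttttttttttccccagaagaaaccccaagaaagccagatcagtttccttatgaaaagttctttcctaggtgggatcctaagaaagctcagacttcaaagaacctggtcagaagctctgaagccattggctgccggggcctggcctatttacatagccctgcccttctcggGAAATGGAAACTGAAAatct
Bst2 (chr8:71537473-71537672, minus strand): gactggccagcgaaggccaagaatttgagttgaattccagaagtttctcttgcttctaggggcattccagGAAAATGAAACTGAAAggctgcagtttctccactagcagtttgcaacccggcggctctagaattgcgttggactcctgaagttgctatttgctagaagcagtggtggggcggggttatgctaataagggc

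Isg20, which had the smallest p of all members in each comparison that called one, held no ISRE core in any of its windows. Its 200 bases before the first of 3 RefSeq starts are shown with the GAS match in capitals.
Isg20 (chr7:78913224-78913423, plus strand): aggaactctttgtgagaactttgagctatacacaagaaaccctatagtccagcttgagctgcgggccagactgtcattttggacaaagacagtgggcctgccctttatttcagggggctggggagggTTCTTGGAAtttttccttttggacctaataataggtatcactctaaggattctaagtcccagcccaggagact
The remaining 2 members that the test called in the combination were Herc6, with neither motif in its window, and Zbp1, for which no window was matched.

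**Figure D1:**
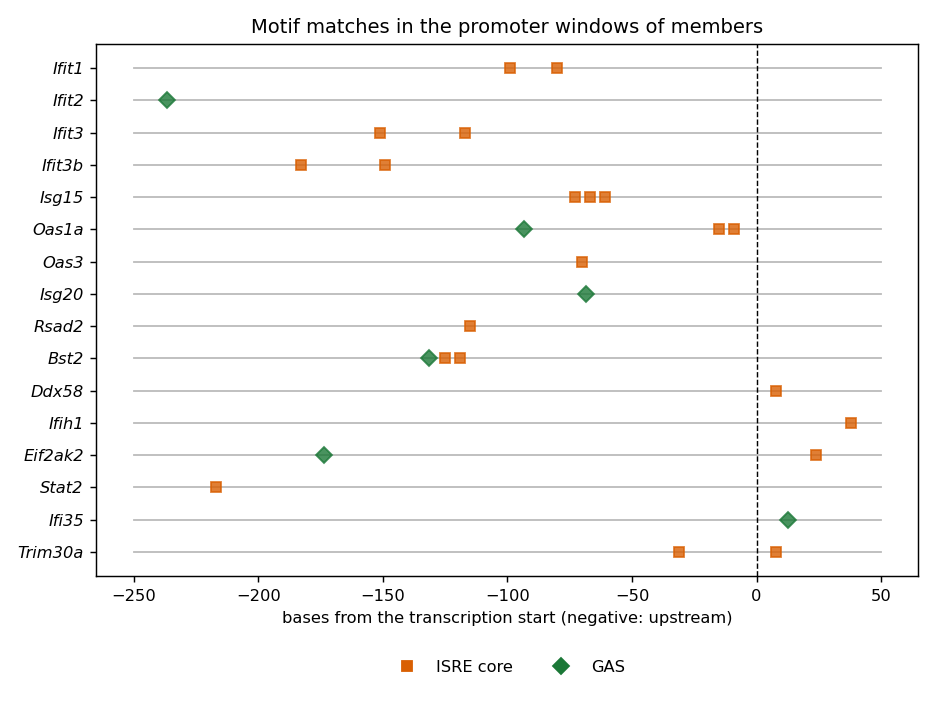
Distance in bases from the transcription start (negative, upstream) of each match to the ISRE core (squares) and to GAS (diamonds) in the 16 members with a match, with the 250 bases before and 50 bases after the start drawn as a line; the 2 matches of Trim30a lie in windows of different starts. Most ISRE matches lie upstream of the start, and Isg20, Ifi35 and Ifit2 hold a GAS match alone.

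Depth hardly differed between libraries, with 16545394 to 17217035 expected counts and a median of 16927043. The labelled tissue was checked against markers: the keratins Krt8 and Krt18 and Epcam stayed at or below 0.54 FPKM in all tumors, so these epithelial markers were near 0, and Cdh1 ran from 1.59 to 3.96 FPKM. Of the 12 libraries, 2 stood apart. CK tumor 3 held summed neutrophil genes (5 markers) of 411.6 FPKM against 6.05 to 32.95 in the other tumors, and anti-PD-1 tumor 1 held summed skeletal muscle genes (7 markers) of 581.7 FPKM against 10.31 to 61.69. The main counts are given with and without them.

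The members were well expressed, and their levels differed widely between tumors of 1 group. Mean FPKM over the 12 tumors ran from 4.27 in Oasl1 to 217 in Bst2, with a median of 20.8, and the lowest expected count of any member in any tumor was 74. All 37 are protein-coding genes, and their positions are given on GRCm38.p6. Of the 37, 25 had whole counts in every tumor, which gives no sign of reads divided with another gene, and 7 had fractional counts in all 12. In CK, tumor 3 was the highest of the 3 tumors in all 37 members and tumor 2 the lowest in 35, with Ifit2 and Trim25 as the exceptions. In PB-020, tumor 2 was the lowest in 36 members, with Isg20 as the exception. In the combination, tumor 1 was the highest of the 3 in all 37 members and the highest of all 12 tumors in 36, with Ifi27l2a, highest in CK tumor 3, as the exception. These ranks were not counted over all genes, so how far they are particular to the members was not tested.

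The spread within groups was wide for these genes. The median over members of the SD of log2 CPM between the 3 tumors was 0.60 in CK against 0.11 over all genes tested, 0.45 against 0.11 in PB-020, and 0.49 against 0.12 in the combination. In anti-PD-1 it was 0.18 against 0.14. The member median exceeded the SD of 95.3%, 93.5% and 95.2% of all genes in CK, PB-020 and the combination, and of 61.2% in anti-PD-1. In FPKM, the highest CK tumor exceeded the lowest by a median of 2.25-fold, from 1.18-fold in Ifit2 to 4.27-fold in Ifi27l2a, and the 3 anti-PD-1 tumors lay within a median of 1.28-fold of each other.

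**Figure D2:**
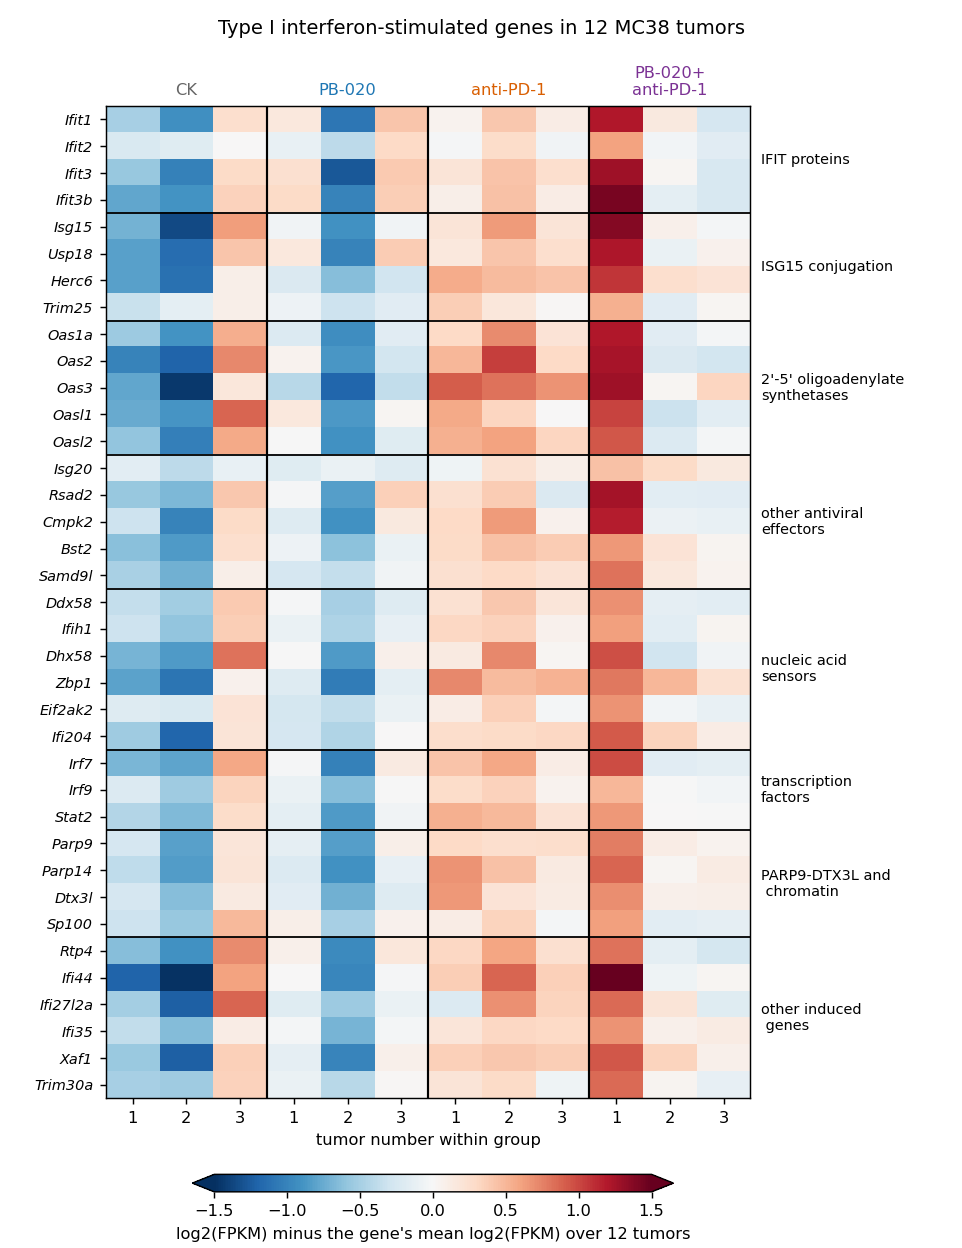
Each row is one of the 37 members, ordered by role, and each column one of the 12 tumors; color is log2(FPKM) minus the mean log2(FPKM) of that gene over the 12 tumors, from blue (lower) to red (higher). The columns of CK tumors 1 and 2 and PB-020 tumor 2 are low throughout, with 0 of 37 members above their own mean, and those of anti-PD-1 tumor 2 and combination tumor 1 are high in all 37, while PB-020 tumors 1 and 3 and combination tumors 2 and 3 are mixed, with 9, 16, 18 and 16 above.

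The IFIT proteins bind viral RNA and block its translation. Ifit3 (NCBI gene 15959, chr19:34583119-34588982) measured 22.0, 16.2 and 40.1 FPKM in CK tumors 1 to 3, 38.7, 13.5 and 42.8 in PB-020, 37.4, 44.0 and 39.1 in anti-PD-1, and 79.3, 33.3 and 27.7 in the combination. The groups overlapped, and 2 of the 3 combination tumors lay below CK tumor 3. Ifit3 and its near copy Ifit3b had fractional expected counts in all 12 tumors, so reads were divided between genes and the levels of both are uncertain. Ifit2 was the member with the least spread in CK, where its mean was 14.8 ± 1.30 FPKM (SD, n = 3). Over all tumors Ifit1 ran from 9.03 to 44.05 FPKM and Ifit2 from 12.29 to 24.59.

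ISG15 is a ubiquitin-like protein that is attached to other proteins, HERC6 is the main mouse ligase for it, and USP18 removes it and also restrains the interferon receptor. Isg15 (NCBI gene 100038882, chr4:156199424-156200818) measured 30.9, 19.9 and 78.2 FPKM in CK, 48.7, 27.1 and 49.0 in PB-020, 58.0, 79.1 and 57.8 in anti-PD-1, and 132, 53.6 and 49.6 in the combination. CK tumor 3 thus lay close to the mean of the combination, which was 78.2 ± 46.2 FPKM (SD, n = 3). Herc6 (NCBI gene 67138, chr6:57580992-57665136) measured 4.04, 3.26 and 7.55 FPKM in CK, 6.12, 4.57 and 5.80 in PB-020, 10.4, 9.87 and 9.56 in anti-PD-1, and 14.98, 8.45 and 8.17 in the combination. All 6 tumors given the antibody lay above all 6 tumors without it for Herc6. Usp18 ran from 3.99 to 20.35 FPKM over the 12 tumors, and Trim25, a ligase that activates RIG-I, from 16.97 to 30.94, the narrowest fold range of this role (1.82-fold).

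The 2'-5' oligoadenylate synthetases make the second messenger that switches on RNase L, and OASL1 and OASL2 are related proteins. Oasl2 (NCBI gene 23962, chr5:114896926-114912245) measured 35.9, 26.6 and 80.6 FPKM in CK, 54.0, 28.8 and 47.7 in PB-020, 78.2, 82.7 and 67.6 in anti-PD-1, and 104, 46.9 and 53.0 in the combination. Oasl1 (NCBI gene 231655, chr5:114923143-114937911), an inhibitor of Irf7 translation, was the lowest member, at 2.32, 2.12 and 7.15 FPKM in CK, 4.36, 2.15 and 3.99 in PB-020, 5.79, 4.87 and 3.93 in anti-PD-1, and 7.91, 3.13 and 3.49 in the combination. In both genes CK tumor 3 lay within the range of the tumors given the antibody. Oas3 had the largest log2 change of all members between anti-PD-1 and CK, with means of 18.7 ± 1.53 and 7.42 ± 4.18 FPKM (SD, n = 3 each). Oas1a had fractional counts in all 12 tumors and Oas3 in 10, so a share of their reads was divided between genes.

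Among the other antiviral effectors, tetherin (Bst2) holds budding virions at the cell surface, ISG20 is an RNA exonuclease, and SAMD9L is an antiviral restriction factor. Bst2 (NCBI gene 69550, chr8:71534255-71537472) measured 134, 115 and 246 FPKM in CK, 197, 135 and 193 in PB-020, 253, 281 and 270 in anti-PD-1, and 325, 239 and 214 in the combination. Samd9l (NCBI gene 209086, chr6:3372257-3399571) measured 16.1, 13.7 and 24.0 FPKM in CK, 18.9, 17.5 and 21.7 in PB-020, 26.6, 27.6 and 26.2 in anti-PD-1, and 39.5, 25.2 and 23.3 in the combination. In both, the anti-PD-1 tumors lay above all CK tumors, and CK tumor 3 reached into the range of the combination. Isg20 (NCBI gene 57444, chr7:78913396-78920396) measured 15.9, 13.5 and 16.3 FPKM in CK, 15.6, 16.5 and 15.5 in PB-020, 16.98, 20.7 and 18.8 in anti-PD-1, and 24.0, 21.6 and 19.6 in the combination. Its changes were small, but the tumors of a group lay close together, and neither antibody group overlapped with CK or with PB-020. Rsad2 (viperin, which makes a chain-ending nucleotide) ran from 4.28 to 17.99 FPKM, and its neighbor Cmpk2 from 4.82 to 21.74, with the highest value of both in combination tumor 1.

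The nucleic acid sensors include RIG-I (Ddx58), MDA5 (Ifih1) and LGP2 (Dhx58), which detect RNA, and ZBP1, which binds left-handed nucleic acid and can start necroptosis. Zbp1 (NCBI gene 58203, chr2:173206612-173218959) measured 32.1, 26.2 and 58.6 FPKM in CK, 49.0, 27.2 and 50.9 in PB-020, 92.1, 77.9 and 80.6 in anti-PD-1, and 96.7, 79.0 and 65.4 in the combination. Every tumor given the antibody lay above every tumor without it. Ifi204 (NCBI gene 15951, chr1:173747293-173767069), a DNA-binding protein of the p200 family, measured 34.8, 22.1 and 57.5 FPKM in CK, 42.4, 36.7 and 50.4 in PB-020, 60.6, 61.6 and 62.3 in anti-PD-1, and 95.7, 63.5 and 54.5 in the combination. Ifi204 belongs to a family of close copies and had fractional counts in all 12 tumors, so its level is uncertain. Dhx58 (NCBI gene 80861, chr11:100694884-100704271) measured 6.54, 5.88 and 18.7 FPKM in CK, 10.6, 5.88 and 11.1 in PB-020, 11.6, 17.4 and 10.8 in anti-PD-1, and 20.7, 8.66 and 10.2 in the combination, and CK tumor 3 was second only to tumor 1 of the combination. Ddx58 and Ifih1 were less variable, at 10.55 to 24.38 and 6.63 to 15.26 FPKM, as was Eif2ak2 (the kinase PKR) at 14.74 to 30.50.

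IRF7 drives the amplifying wave of interferon alpha, and STAT2 and IRF9 are parts of ISGF3. Irf7 (NCBI gene 54123, chr7:141263183-141266499) measured 22.4, 20.8 and 54.0 FPKM in CK, 35.6, 17.9 and 39.5 in PB-020, 48.4, 53.9 and 38.7 in anti-PD-1, and 70.9, 32.0 and 32.4 in the combination. As for Isg15, combination tumor 1 was the highest and the groups overlapped. Irf9 ran from 19.44 to 42.65 FPKM and Stat2 from 13.34 to 37.85 over the 12 tumors. PARP9 and DTX3L form a complex that modifies ubiquitin and histones, PARP14 is a related enzyme, and SP100 is a nuclear body protein. Sp100 (NCBI gene 20684, chr1:85649948-85709998) measured 28.2, 23.7 and 49.0 FPKM in CK, 37.1, 24.8 and 36.6 in PB-020, 37.7, 44.0 and 34.4 in anti-PD-1, and 53.7, 31.3 and 32.0 in the combination. All 4 groups overlapped. Parp9 and Dtx3l are neighbors on opposite strands and had fractional counts in all 12 tumors, and whether the counting used strand is not given in the sources used here.

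The other induced genes comprised Rtp4, Ifi44, Ifi27l2a, Ifi35, Xaf1 and Trim30a. Ifi27l2a (NCBI gene 76933, chr12:103433873-103443680), which codes for a small hydrophobic protein, measured 70.5, 43.1 and 184 FPKM in CK, 88.6, 69.0 and 93.5 in PB-020, 87.0, 161 and 127 in anti-PD-1, and 181, 115 and 88.5 in the combination. Rtp4 (NCBI gene 67775, chr16:23520219-23614222), a chaperone of membrane receptors, measured 24.9, 20.6 and 63.0 FPKM in CK, 40.7, 20.04 and 43.4 in PB-020, 48.1, 58.4 and 45.8 in anti-PD-1, and 68.2, 34.9 and 32.2 in the combination. For both genes CK tumor 3 lay above all PB-020 and all anti-PD-1 tumors. Ifi44 had the widest fold range of all members, 5.01 to 39.73 FPKM, and was 21.1 FPKM in CK tumor 3.

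Over the list, CK tumor 3 lay above all 3 PB-020 tumors in 32 members (36.3% of all genes tested), above all 3 anti-PD-1 tumors in 9 (34.9%) and above all 3 combination tumors in 1 (39.3%). CK tumors 1 and 2 lay above all 3 tumors of a treated group in 0 members. Of all genes tested, CK tumor 1 did so in 24.1% for PB-020, 29.3% for anti-PD-1 and 32.7% for the combination. For CK tumor 2 the shares were 31.5%, 34.1% and 38.1%.

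**Figure D3:**
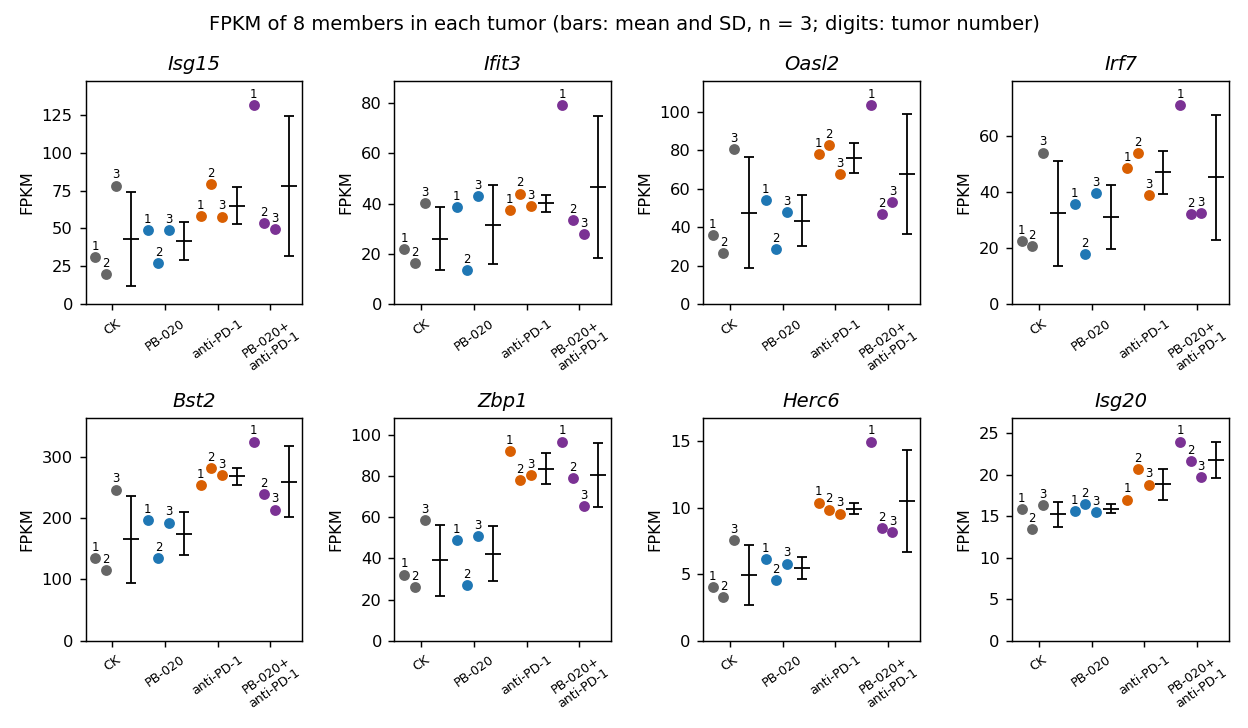
FPKM of 8 members in each of the 12 tumors (points, numbered within the group), with the mean and SD of the 3 tumors as bars. For Zbp1, Herc6 and Isg20 the 6 tumors given the antibody lie above the other 6. For Isg15, Ifit3, Oasl2, Irf7 and Bst2 CK tumor 3 lies within the range of the tumors given the antibody.

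PB-020 alone was compared with CK to ask whether the inhibitor by itself moved these genes. No member passed an adjusted p of 0.05 (0 raised, 0 lowered), and edgeR raised 0% of all genes in this comparison. At an unadjusted p under 0.05 edgeR called 0 members, with 3.12% of all genes higher at that level, and DESeq2 and limma also called 0. Of the 37 members, 18 were higher and 19 lower, with a median log2 change of -0.03 and a range of -0.23 to 0.36. The median standard error was 0.33 on the log2 scale for members and 0.11 for all genes. All 3 PB-020 tumors lay above all CK tumors in 0 members, against 6.19% of all genes. Without CK tumor 3 and anti-PD-1 tumor 1 the median was 0.48 and the count of calls stayed at 0.

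Anti-PD-1 was compared with CK to see the response to the antibody alone. All 37 members were higher (50.1% of all genes were), with a median log2 change of 0.58 from 0.23 in Ifit2 to 1.35 in Oas3, while the median of all genes was 0.00. The members varied together between tumors, so their agreeing signs are not 37 separate results, here or in the later comparisons. Only Isg20 was raised, by 0.39 ± 0.11 on the log2 scale (edgeR adjusted p = 0.0427), which was 1 of 37 members against 4.18% of all genes raised. At an unadjusted p under 0.05, 8 members were higher (13.6% of all genes were), namely Isg20, Zbp1, Herc6, Oas3, Samd9l, Bst2, Ifi35 and Dtx3l. Zbp1 changed by 1.22 ± 0.32 (adjusted p = 0.051) and Herc6 by 1.03 ± 0.32 (adjusted p = 0.0833), which missed the threshold. The 3 anti-PD-1 tumors lay above the 3 CK tumors in 10 members (Bst2, Herc6, Ifi204, Ifi35, Isg20, Oas3, Parp9, Samd9l, Xaf1 and Zbp1), against 11.8% of all genes. By role, the median log2 change was 0.55 for the IFIT proteins, 0.64 for ISG15 conjugation, 0.72 for the synthetases, 0.60 for the other antiviral effectors, 0.39 for the sensors and 0.56 for the transcription factors, and the effectors held the single raised gene.

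The call of Isg20 against CK held in 7 of 22 other settings. Among the libraries left out singly, CK tumors 1, 2 and 3, PB-020 tumors 1, 2 and 3, anti-PD-1 tumors 2 and 3 and combination tumor 2 each ended it. Without CK tumor 3 the median of the members was 1.07 and 4 were raised (2.46% of all genes in that fit), Bst2, Herc6, Samd9l and Zbp1. Without both libraries that stand apart the median was 1.01 and 1 was raised, Isg20 (1.73% of all genes).

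The combination was compared with CK to see the response to both agents. All 37 members were higher (49.6% of all genes were), with a median log2 change of 0.61 from 0.23 in Sp100 to 1.199 in Oas3. Raised were 3 members of 37, against 8.35% of all genes: Isg20 by 0.56 ± 0.11 (edgeR adjusted p = 0.00522), Herc6 by 1.11 ± 0.32 (0.0444) and Zbp1 by 1.10 ± 0.32 (0.0458). Samd9l at 0.73 ± 0.23 (adjusted p = 0.0561) and Ifi204 at 0.92 ± 0.33 (0.0818) missed the threshold, and 8 members passed an unadjusted p of 0.05, with 16.5% of all genes higher at that level. The larger part of the family had wide errors: Isg15 changed by 0.88 ± 0.55 (adjusted p = 0.299) and Ifit3 by 0.87 ± 0.55 (0.299). The members with the largest p were Dhx58, Rtp4 and Oasl1, at 0.37 ± 0.52, 0.34 ± 0.49 and 0.34 ± 0.51. By role, the median was 0.85 for the IFIT proteins, 0.88 for ISG15 conjugation, 0.66 for the synthetases, 0.68 for the other effectors, 0.35 for the sensors and 0.49 for the transcription factors. All 3 combination tumors lay above all CK tumors in the 3 called members, 3 of 37 against 17.9% of all genes.

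The median moved most with 1 tumor on each side. Without combination tumor 1 the median log2 change of the members against CK was 0.17 and 1 was raised (3.34% of all genes raised in that fit), and without CK tumor 3 it was 1.09 with 9 raised (5.38%), Bst2, Herc6, Ifi204, Ifi35, Isg20, Oas3, Samd9l, Xaf1 and Zbp1. Leaving out CK tumors 1 or 2, PB-020 tumors 1 or 3, any anti-PD-1 tumor or combination tumor 2 also left 1 raised, which was Isg20 each time. In those fits 2.39% to 12.3% of all genes were raised. Without CK tumor 3 and anti-PD-1 tumor 1 together, 7 were raised (11% of all genes), and the median was 1.09. Isg20 was called in 21 of 22 other settings, all but the one that asks for a fold over 1.5.

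**Figure D4:**
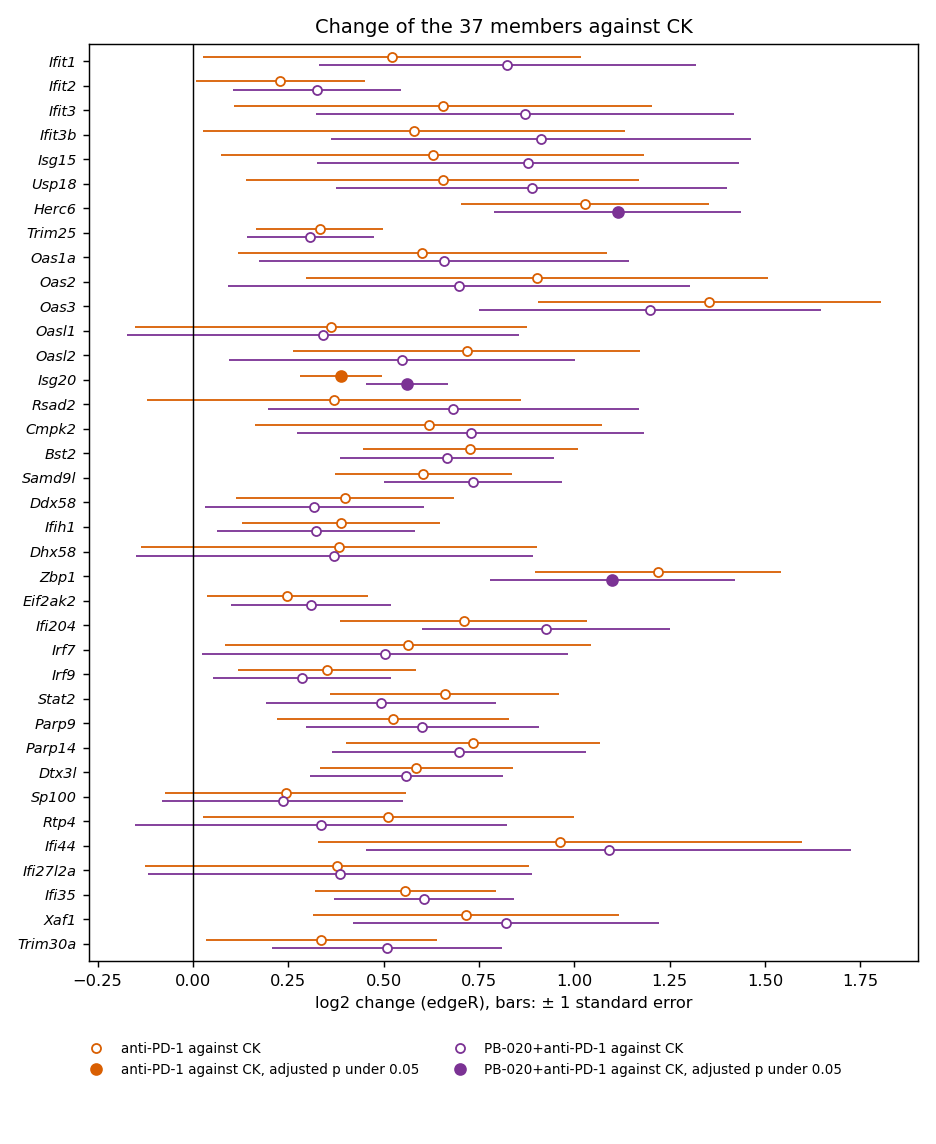
Log2 change of each of the 37 members against CK (points) with 1 standard error on each side (lines), with the antibody alone and with both agents; filled points have an adjusted p under 0.05. All points lie above 0, and the filled ones are Isg20 in both comparisons and Herc6 and Zbp1 in the combination.

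The combination was next set against each agent alone. Against anti-PD-1, 20 members were higher and 17 lower with a median log2 change of 0.05, and 0 were called by edgeR (0% of all genes raised), 0 at an unadjusted p under 0.05 (4.45% of all genes higher) and 0 by DESeq2 or limma. Isg20 differed by 0.17 ± 0.11 and Isg15 by 0.25 ± 0.54 in this comparison, so the errors leave room for changes in either direction. Against PB-020, all 37 members were higher (49.8% of all genes were) with a median of 0.56. Of them, 0 were called (1.25% of all genes raised) and 8 passed an unadjusted p of 0.05 (10.2% of all genes higher). Isg20 came closest, at 0.42 ± 0.11 (edgeR adjusted p = 0.0505), and it was called by limma, while DESeq2 called Isg20 and Zbp1. Without CK tumor 3 and anti-PD-1 tumor 1 it was the 1 member called against PB-020 (6.03% of all genes raised). The interaction, which is the combination minus both single agents plus CK on the log2 scale, had a median of 0.01 and 0 calls (0% of all genes), with 0 at an unadjusted p under 0.05 (0.848% of all genes higher) and 0 by DESeq2 or limma. Its median standard error of 0.47 was the widest of the comparisons, and without CK tumor 3 and anti-PD-1 tumor 1 the median was -0.40 with 0 calls.

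The effect of each agent was averaged over the groups with and without the other agent, in the same fit of 4 group means. Each average sets 6 tumors against 6. With anti-PD-1 given, 9 members of 37 were raised against 11.8% of all genes: Bst2, Dtx3l, Herc6, Ifi35, Isg20, Oas3, Parp14, Samd9l and Zbp1, by 0.40 in Isg20 to 1.30 in Oas3. The median log2 change was 0.56, and 15 members passed an unadjusted p of 0.05 (18.9% of all genes higher). Herc6, Oas3 and Zbp1 were called in all 21 other settings, and Isg20 in 20. The count ran from 4 to 22 when single libraries were left out, with 22 without CK tumor 3 (10.8% of all genes raised in that fit). It was 4 without CK tumor 1 or 2, PB-020 tumor 1 or 2, or anti-PD-1 tumor 1 or 3 (7.3% to 11.2%). It was 5 without PB-020 tumor 3 (7.69%) or combination tumor 1 (7.96%). Without CK tumor 3 and anti-PD-1 tumor 1 together it was 11 (11.3% of all genes), with Ifi204, Ifi27l2a and Xaf1 added and Parp14 lost. With PB-020 given, 0 were called (0% of all genes), 0 passed an unadjusted p of 0.05 (6.55% of all genes higher), DESeq2 and limma called 0, and the median was 0.01. The comparisons with CK share its 3 tumors, and the averaged effects reuse them, so none is independent of the others.

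Other genes of the pathway were read in the order of the signal. Of the 20 type I and III ligands listed, 6 had a row and 0 had enough counts to be tested. Ifnb1, interferon beta, was listed at 0 FPKM in 6 tumors and reached 0.38 in PB-020 tumor 1, with at most 4 counts in a tumor and 12 over all 12. Combination tumor 1, the tumor with the highest members, held 0.29 FPKM, and CK tumor 3 held 0.10. The receptor chains were well expressed: Ifnar1 was 20.5, 19.6 and 20.8 FPKM in CK and 16.83, 16.83 and 17.03 in the combination, where it was lower by a log2 change of -0.26 ± 0.08 (edgeR adjusted p = 0.0325). Ifnar2 changed by -0.07 ± 0.08 in each antibody group against CK (adjusted p = 0.613 for anti-PD-1 and 0.552 for the combination). Irf3, which starts the transcription of interferon beta, changed by 0.08 ± 0.10 and -0.01 ± 0.10.

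Socs1, an inhibitor of the receptor kinases, was raised by 0.93 ± 0.25 in anti-PD-1 (edgeR adjusted p = 0.0498) and by 0.85 ± 0.26 in the combination (0.044). It was the single raised gene of 5 inhibitors of receptor signaling tested. Of 3 receptor genes tested, Ifnar1 was the single one that passed, in the combination. Of 14 genes that lead to interferon production tested, 0 passed in anti-PD-1 and 2 were raised in the combination, the DNA sensor gene Cgas by 0.57 ± 0.14 (edgeR adjusted p = 0.0139) and Irf5 by 0.46 ± 0.14 (0.0372). In PB-020 against CK, 0 of the receptor, inhibitor and inducer genes passed.

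Interferon gamma and its targets were set beside the members. Ifng was 0.82, 0.72 and 0.73 FPKM in CK, 1.06, 0.84 and 1.84 in PB-020, 5.36, 1.5 and 2.85 in anti-PD-1, and 2.03, 3.91 and 3.61 in the combination, and it was raised by 2.10 ± 0.45 (edgeR adjusted p = 0.0181) and 2.08 ± 0.45 (0.00945) in the antibody groups. Irf1, its early target, was raised by 0.93 ± 0.18 (0.0181) and 0.69 ± 0.18 (0.0274). Of 20 type II targets, 10 were raised in anti-PD-1 (median 1.17), 12 in the combination (median 1.01) and 19 with anti-PD-1 given (median 1.04). Of the 37 members 1, 3 and 9 were raised, and of all genes 4.18%, 8.35% and 11.8%. Both lists were chosen with earlier results of these data known. No test of the difference between the lists was made.

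The lists also ordered the tumors differently. Taking for each tumor the median log2(FPKM) relative to the mean of each gene over 12 tumors, the members stood at -0.53, -0.85 and 0.34 in CK tumors 1 to 3, at -0.10, -0.85 and -0.03 in PB-020, at 0.29, 0.42 and 0.19 in anti-PD-1, and at 0.87, -0.00087 and -0.03 in the combination. The type II targets stood at -0.40, -1.24 and -0.14 in CK, at -0.29, -1.07 and -0.14 in PB-020, at 0.93, 0.24 and 0.54 in anti-PD-1, and at 0.39, 0.52 and 0.50 in the combination. All 6 tumors given the antibody lay above the other 6 for the type II targets. For the members CK tumor 3 ranked 3rd of 12, and combination tumors 2 and 3 lay near 0. Combination tumor 1 ranked 1st for the members and 5th for the type II targets, and anti-PD-1 tumor 1 ranked 4th and 1st.

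**Figure D5:**
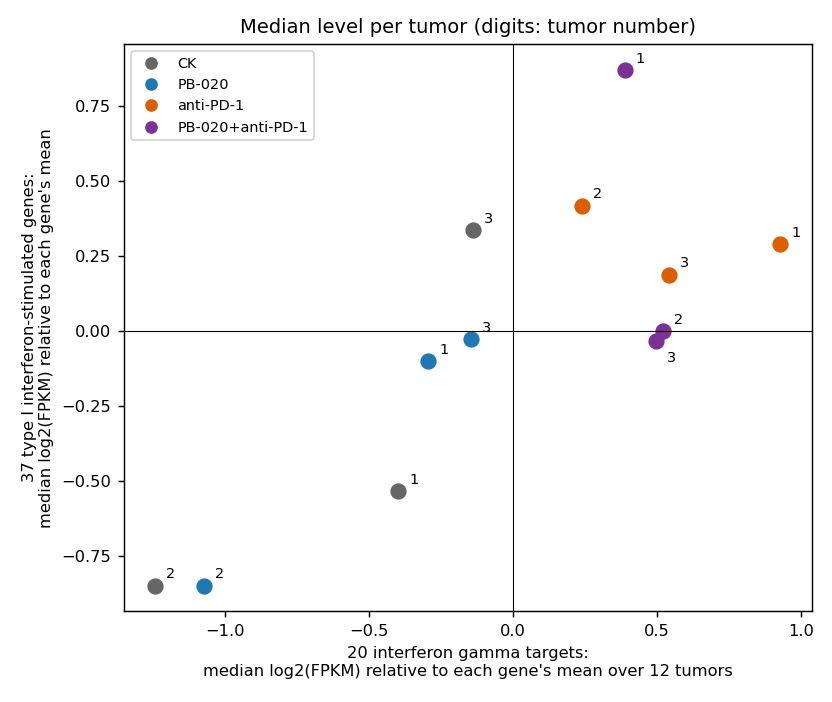
Each point is one tumor (number within its group); the horizontal axis is the median over 20 interferon gamma targets, and the vertical axis the median over the 37 members, of log2(FPKM) relative to the mean of each gene over 12 tumors. The groups with and without the antibody separate along the horizontal axis, and CK tumor 3 and combination tumor 1 lie high on the vertical axis for their position.

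Cell type markers also differed between groups, and their part in the results was not tested. Summed T cell genes (10 markers) ran from 37.07 to 50.93 FPKM in CK, 49.05 to 56.65 in PB-020, 63.99 to 124.3 in anti-PD-1 and 70.69 to 103.6 in the combination, with 7 of 10 raised by anti-PD-1 and 8 by the combination. Natural killer cell genes (6 markers) ran from 8.32 to 11.3 FPKM in CK, 10.1 to 12.8 in PB-020, 9.68 to 24.9 in anti-PD-1, overlapping CK, and 18.3 to 23.8 in the combination, with 1 raised by anti-PD-1 alone and 2 by both agents. Of 8 macrophage genes, which ran from 795.9 to 1029 FPKM in CK, 0 were raised by anti-PD-1 and 1 by the combination. Erythroid genes (6 markers) were all lowered in both antibody groups, from 679.5 to 1556 FPKM in CK to 100.7 to 379.7 in anti-PD-1 and 126.6 to 183.9 in the combination, and 3 of 6 fibroblast genes were lowered in each. Plasmacytoid dendritic cell genes (6 markers) summed to 35.95 to 39.77 FPKM in CK, 31.60 to 37.82 in PB-020, 30.57 to 32.48 in anti-PD-1 and 29.74 to 38.21 in the combination, most of it Tcf4 and Runx2. Of these 6, 1 was raised and 1 lowered in each antibody group against CK, and 3 were raised and 1 lowered with anti-PD-1 given. The raised ones there included Siglech, which marks these cells and stayed at or below 0.90 FPKM in all tumors, at 1.33 ± 0.34 on the log2 scale (edgeR adjusted p = 0.0134). Within groups, the T cell genes did not always follow the members. Combination tumor 1 held the lowest T cell sum of its group, 70.69 FPKM, and CK tumor 3 held 49.3 against 50.93 in CK tumor 1. CK tumor 2 and PB-020 tumor 2, low in the members, held the lowest T cell sums of their groups, 37.07 and 49.05 FPKM. CK tumor 3 combined high members with the high neutrophil genes given above, whereas combination tumor 1 held the lowest summed neutrophil genes of all, 6.05 FPKM. In whole tumors, fewer cells of a type and less RNA per cell cannot be told apart.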

How the data were processed

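RNA of 12 MC38 tumors, 3 in each of 4 groups taken from the labels, had been read as pairs of 150 bases. Per the study's methods the authors aligned reads with Bowtie2 and quantified genes with RSEM, while the submitters' processing notes list HISAT, Bowtie2 and GRCm38.p6, and tool versions and annotation are not given in the sources used here. The deposited expected counts are not normalized, were whole in 91.0% of values and were rounded. The deposited FPKM values, made by the authors by scaling for gene length and depth, were used for levels, while deposited TPM values and group averages were left out. Depth was 16545394 to 17217035 expected counts, which makes counting error small beside the spread between tumors.

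Genes kept by filterByExpr (minimum count 10) were scaled by TMM and fitted with the quasi-likelihood model of edgeR 4.0.16 in R 4.3.3, with 4 group means and all 12 libraries. Tests were two-sided, p values were adjusted by Benjamini-Hochberg over 13563 genes, and ± after a log2 change is the standard error. Genes were called at an adjusted p under 0.05. Alternatives were DESeq2 1.42.0, limma 3.58.1 on log2(FPKM + 1) and log2(FPKM + 0.1), other filters and scaling, the groups compared alone, a replicate block, the thresholds of the study's methods and each library left out. Leaving out CK tumor 3 with anti-PD-1 tumor 1 was chosen after seeing the data. The computation was tested on simulated counts. Members named in full are the one with the highest mean FPKM in each role and, in PB-020+anti-PD-1 against CK, the 5 with the smallest and the 3 with the largest p. Other members and markers are named after their values were seen. The members and the lists were chosen with earlier results of these data known. Coordinates are 1-based. Of the pathway genes, 1 is not reported here.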

Additional observations from a re-analysis of the deposited data

How the results depend on the processing

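Counts of members called moved with the setting, and so did the share of all genes raised in the same fit, given in brackets. No share is given for the fold threshold, which also asks for an unadjusted p under 0.05. At that edgeR p alone, 13.6% of all genes were higher in anti-PD-1 against CK. The share was 16.5% in the combination against CK and 10.2% in the combination against PB-020. For anti-PD-1 against CK (1 in the reported fit, 4.18%) the counts of members called were 4 with DESeq2 (6.65%). With a strict filter, 50 counts in 3 libraries, they were 2 (4.86%). They were 0 with limma on log2(FPKM + 1) (2.89%) or log2(FPKM + 0.1) (3.11%). With no filter (2.64%) and with only the groups compared (0.00754%) they were also 0. They were 6 at a fold over 1.5 with unadjusted p under 0.05, and 0 to 4 without single libraries (0.473% to 6.81%). For the combination against CK (3, 8.35%) they were 7 with DESeq2 (10.4%), 1 with no filter (5.29%) and 1 with only the groups compared (11.4%). They were 7 at the fold threshold, 7 without CK tumor 3 and anti-PD-1 tumor 1 (11%), and 1 to 9 without single libraries (2.39% to 12.3%). For the combination against PB-020 (0, 1.25%) they were 2 with DESeq2 (3.95%) and 1 in each limma fit (0.914% and 1.02%). They were 1 with the strict filter (1.51%), 1 with library size alone (1.05%) and 1 with only the groups compared (6.14%). They were 6 at the fold threshold, 1 without both libraries (6.03%), and 0 to 1 without single libraries (0% to 4.41%). With anti-PD-1 given (9, 11.8%) they were 17 with DESeq2 (13.2%), 5 with no filter (7.72%), and 4 to 22 without single libraries (7.3% to 13.4%). For PB-020 against CK, the combination against anti-PD-1, the interaction and PB-020 given, the count was 0 in all settings run. With TMM-scaled CPM in place of FPKM, all 3 PB-020 tumors lay above all CK tumors in 1 member, Isg20 (7.78% of all genes). The 3 anti-PD-1 tumors did so in 11 members (13.9%) and the 3 combination tumors in 4 (19.6%). The cause was not tested.

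Without combination tumor 1, the log2 changes against CK of Sp100, Dhx58, Rtp4 and Oasl1 reversed, to -0.083, -0.11, -0.088 and -0.21. Without CK tumor 3 they were the highest of the fits without 1 library, at 0.60, 1.10, 0.99 and 1.105. Of 315 values for named members in each comparison with CK, 0 reversed for anti-PD-1 and 4 for the combination, and 14 and 26 lost the threshold. With the replicate number as a replicate block, 1 member passed for anti-PD-1 (Zbp1, in place of Isg20), 2 for the combination (Isg20 and Zbp1) and 9 with anti-PD-1 given. The shares of all genes raised in those fits were 3.32%, 7.03% and 9.61%. Over all genes tested, tumors of the same number showed little common deviation, with r from -0.21 to 0.29 over 18 pairs and 2 above 0.1. Over the members, r ran from -0.62 (CK tumor 1 with combination tumor 1) to 0.65 (PB-020 tumor 1 with combination tumor 1). These values give no clear sign that the numbers pair the tumors, but they cannot exclude a pairing. With 3 tumors a group, a member's median standard error of 0.33 on the log2 scale, not the depth, sets what can be seen.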
